A study of Mus musculus with 12 samples.

Results

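The transcripts of 9 genes that build the scaffold of the sarcomere were examined: Ttn (titin), Neb (nebulin), Mybpc1 and Mybpc2 (slow and fast myosin binding protein C), Myom1, Myom2 and Myom3 (the myomesin family), Actn2 (alpha-actinin 2) and Tcap (telethonin, or titin cap). They were chosen by gene symbol, and all 9 were found among the 24421 entries of the count table and passed the filter on low counts. The libraries came from the tibialis anterior, a fast muscle of the front of the lower leg, of 12 male mice aged 4 months. WT denotes 6 mice of the strain C57Bl/6, and mdx/mTR denotes 6 mice of a strain named for the mdx allele, which disrupts the dystrophin gene Dmd, and for mTR, the RNA component of mouse telomerase. The labels list no group with only one of these alleles, so their effects cannot be told apart, and they give no telomerase generation. Nothing in them says whether the numbered samples of a group share a litter or a preparation day.

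Titin is a giant elastic protein that runs from the Z-disc, where the thin filaments are anchored, to the M-band in the middle of the thick filaments. Nebulin lies along the thin filament and sets its length, alpha-actinin crosslinks actin and titin in the Z-disc, and telethonin joins the ends of titin molecules there. Myosin binding protein C forms stripes on the thick filament, and myomesins crosslink thick filaments in the M-band. Fibre types use different members of these families: Mybpc2 and Myom2 (M-protein) are known from fast fibres, and Myom3 from intermediate fibres.

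The WT libraries held 36903560 to 40981012 counts, of which the 9 genes took 4.64% to 4.90%. The mdx/mTR libraries held 35136327 to 60330410, of which they took 4.07% to 4.76%. Dmd checked the labels: its normalised level (CPM, counts over the effective library size given by TMM, a trimmed mean of log ratios between libraries) ran from 228 to 244 in WT mice and from 35.2 to 56.4 in mdx/mTR mice. Terc had 2 counts in WT and 0 in mdx/mTR, where a count of 0 allows up to 0.0820 CPM in the shallowest library, so it checked nothing. Adult fast fibre markers, a list of 16 genes, summed to 191323 to 213666 CPM in WT and 156372 to 211689 CPM in mdx/mTR. In tissue RNA, fewer fibres and less RNA per fibre cannot be told apart.

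Promoters of 6 of the 9 genes were matched by symbol in the RefSeq set used (GRCm38.p6), which held none for Neb, Myom2 and Tcap. Of these 6, those of Ttn, Myom1 and the paralogs Mybpc1 and Mybpc2 are shown. Each is the 250 bases before the start site on the gene's strand: chr2:76982548-76982797 on the minus strand for Ttn, chr17:71019307-71019556 on the plus strand for Myom1, chr10:88605153-88605402 on the minus strand for Mybpc1 and chr7:44524670-44524919 on the minus strand for Mybpc2. The RefSeq start of Myom1 lies inside the gene as GENCODE draws it. Capitals mark matches, on either strand, to an E-box (CANNTG, the motif of myogenic bHLH factors), the MEF2 motif, the CArG box of serum response factor or the M-CAT motif (CATTCC) of TEAD factors.
Ttn: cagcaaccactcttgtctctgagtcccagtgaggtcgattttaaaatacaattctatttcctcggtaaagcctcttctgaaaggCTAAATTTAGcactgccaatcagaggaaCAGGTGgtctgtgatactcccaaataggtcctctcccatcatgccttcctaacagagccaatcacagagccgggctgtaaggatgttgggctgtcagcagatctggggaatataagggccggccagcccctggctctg
Myom1: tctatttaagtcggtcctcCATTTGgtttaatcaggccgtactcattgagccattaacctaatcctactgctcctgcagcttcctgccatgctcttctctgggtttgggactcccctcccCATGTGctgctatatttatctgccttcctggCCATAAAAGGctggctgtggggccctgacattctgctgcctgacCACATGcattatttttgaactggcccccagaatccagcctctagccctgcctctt
Mybpc1: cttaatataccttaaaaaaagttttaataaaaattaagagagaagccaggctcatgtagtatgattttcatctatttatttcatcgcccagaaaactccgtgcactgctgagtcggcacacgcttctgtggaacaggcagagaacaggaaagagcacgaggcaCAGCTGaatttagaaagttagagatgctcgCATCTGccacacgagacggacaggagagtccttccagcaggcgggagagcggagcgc
Mybpc2: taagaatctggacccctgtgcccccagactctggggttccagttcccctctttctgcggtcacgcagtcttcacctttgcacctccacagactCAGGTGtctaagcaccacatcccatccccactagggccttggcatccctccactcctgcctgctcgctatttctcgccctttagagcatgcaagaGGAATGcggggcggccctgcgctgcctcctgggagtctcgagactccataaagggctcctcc
The Ttn sequence held 1 E-box and 1 MEF2 match, and that of Myom1 held 3 E-boxes and 1 CArG box. Mybpc1 had 2 E-boxes, and Mybpc2 had 1 E-box and 1 M-CAT match. Of 32851 promoters of this length, 66.2% held an E-box, 12.6% an M-CAT match, 2.92% a MEF2 match and 1.47% a CArG box. A match describes the letters and is no sign of binding.

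Transcripts of titin and nebulin, the giant filament proteins, were lower in mdx/mTR, that of titin by a call that many settings did not keep. Ttn (GRCm38 chromosome 2, 76703980 to 76982547, minus strand) had a lowest, median and highest level of 17377, 18604 and 19362 CPM in WT and of 13314, 16242 and 17298 CPM in mdx/mTR. All 6 mdx/mTR libraries lay below all 6 WT libraries, narrowly at the boundary. The WT mean was 18543 ± 711 CPM and that of mdx/mTR 15861 ± 1590 CPM (SD over 6 libraries), or 85.5% of WT, with a log2 fold change of -0.23 ± 0.09 (SE; edgeR quasi-likelihood test, adjusted p 0.0438). That call was close to the threshold and was lost without any one of the 6 WT libraries or of mdx/mTR replicates 2, 3 and 4 (adjusted p 0.0511 to 0.0893). It was also lost with the replicate number as a block (adjusted p 0.0765), with GC and length correction plus that block (adjusted p 0.0837), with no filter on low counts (adjusted p 0.0896), with upper quartile scaling (adjusted p 0.0876), without both libraries numbered 2 (adjusted p 0.101), and under library totals alone or scaling to fast fibre genes (adjusted p 0.275 in each).

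Neb (chromosome 2, 52136647 to 52378474, minus strand) had 12416, 12713 and 13282 CPM in WT and 8249, 10329 and 10966 CPM in mdx/mTR as lowest, median and highest. The groups stood well apart, and mdx/mTR replicate 5 was below the rest of its own group. Means were 12807 ± 371 and 10126 ± 964 CPM, and Neb fell by 0.34 ± 0.08 on the log2 scale (edgeR adjusted p 0.0036). The Neb call held in all 12 fits that left out 1 library and in all 13 other settings run. Ttn and Neb were the 2 of the 9 genes whose groups did not overlap, as 25.2% of all tested genes did not.

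Of the 9 genes, 4 were lower past an adjusted p of 0.05 and none was higher, beside 23.4% of all 13937 tested genes lower and 25.0% higher. The share of the 9 genes called (44.4%) was near the 48.3% of all genes called in either direction. Their median log2 fold change was -0.21, against 0.01 for all tested genes and -0.19 for the 16 adult fast fibre genes. With the replicate block 3 of the 9 were called, beside 46.1% of all genes (23.7% higher, 22.3% lower). DESeq2 called 5, beside 41.6% (21.7% higher, 19.9% lower), and limma-voom 4, beside 47.5% (24.0% higher, 23.5% lower). By the authors' deposited table, 5 of the 9 have an adjusted p under 0.05, Myom1 being the one added (log2 fold change -0.21, adjusted p 0.0327).

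**Figure D1:**
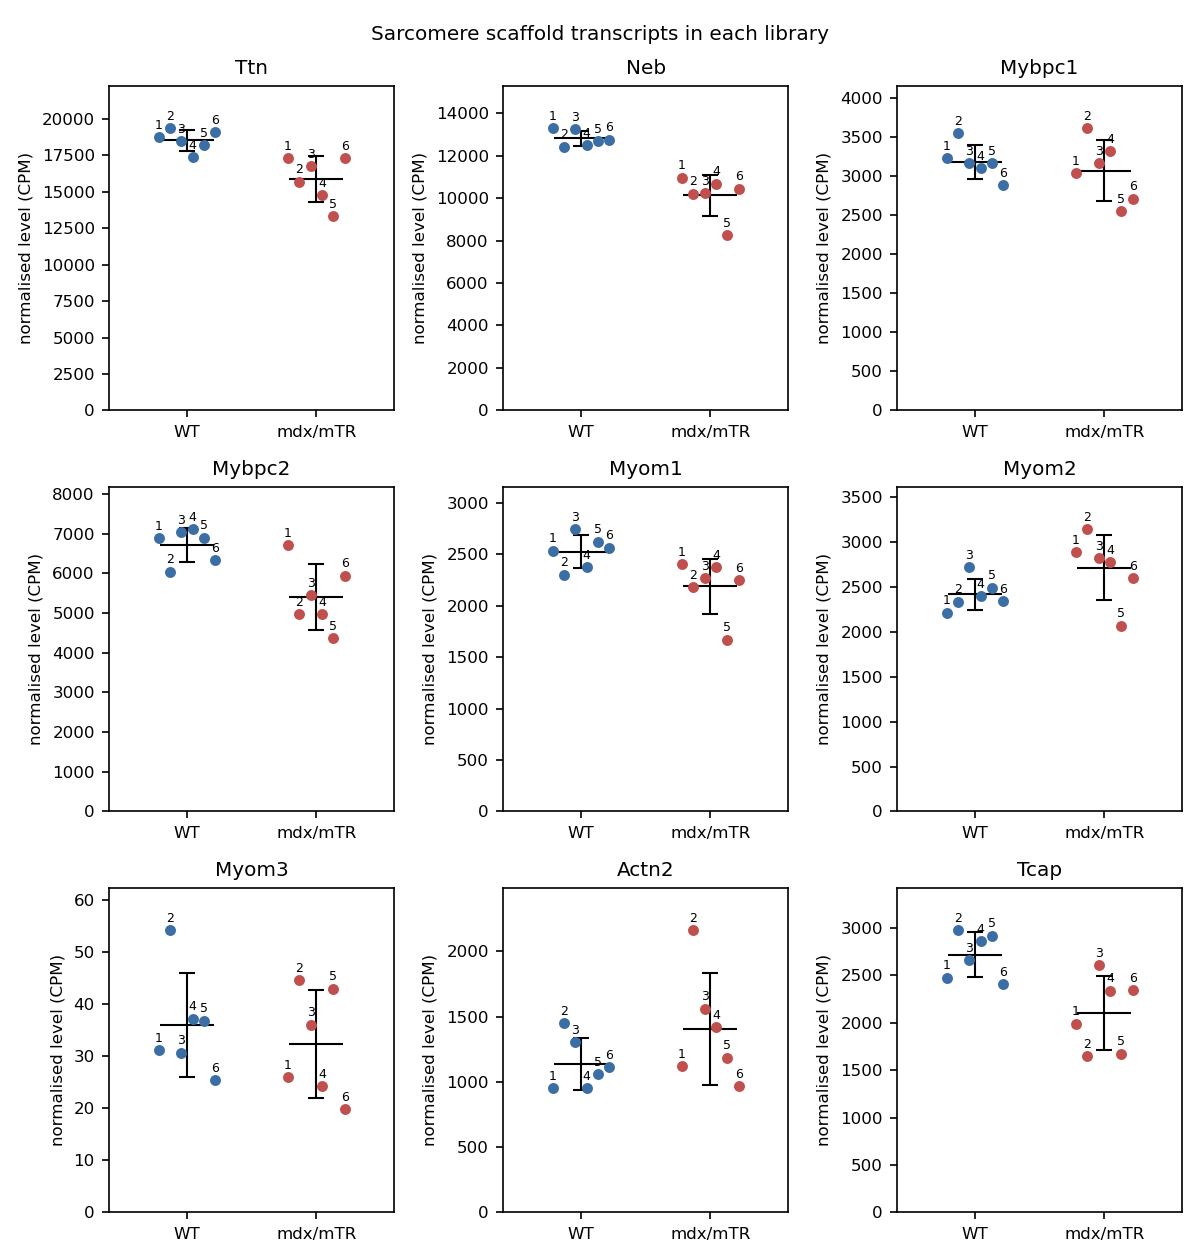
Normalised level (CPM, TMM-scaled, axes from 0) of the 9 scaffold genes in each library; points are libraries with their replicate number, and bars give the mean and SD of 6. Ttn and Neb separate the groups, and mdx/mTR replicate 5 is the lowest mdx/mTR library for 6 of the 9 genes.

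Among Z-disc transcripts, the changes of telethonin and alpha-actinin 2 had opposite signs. Tcap (chromosome 11, 98383811 to 98384953, plus strand) ran from 2405 through a median of 2758 to 2973 CPM in WT and from 1649 through 2163 to 2607 CPM in mdx/mTR. The ranges overlapped, with 5 of 6 mdx/mTR libraries below every WT library. Tcap fell by 0.37 ± 0.11 on the log2 scale (edgeR adjusted p 0.0161). Its adjusted p was 0.0597 without both libraries numbered 2, an alternative added after seeing the data.

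Actn2 (chromosome 13, 12269426 to 12340760, minus strand) had 953, 1085 and 1450 CPM in WT and 969, 1301 and 2160 CPM in mdx/mTR as lowest, median and highest. The groups overlapped and the difference did not pass (log2 fold change 0.30 ± 0.17, edgeR adjusted p 0.169). The highest library of each group was its replicate 2, which also had the highest level of the fast 2X myosin gene Myh1 in its group (17089 and 13057 CPM); Myh1 was picked after its values were seen. Without mdx/mTR replicate 2 the log2 fold change of Actn2 was 0.14. Actn3, the alpha-actinin of fast fibres, had a mean of 10280 ± 814 CPM for WT and 8429 ± 1542 CPM for mdx/mTR (SD; log2 fold change -0.29 ± 0.12, edgeR adjusted p 0.0604).

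On the thick filament, the transcript of the fast isoform of myosin binding protein C was lower and that of the slow isoform was not called. Mybpc2 (chromosome 7, 44501699 to 44524656, minus strand) had 6045, 6892 and 7112 CPM in WT and 4373, 5212 and 6715 CPM in mdx/mTR as lowest, median and highest. Only mdx/mTR replicate 1 reached into the WT range. Mybpc2 fell by 0.31 ± 0.10 on the log2 scale (edgeR adjusted p 0.0178). Mybpc1 (chromosome 10, 88518279 to 88605152, minus strand) had 2892, 3169 and 3555 CPM in WT and 2555, 3105 and 3617 CPM in mdx/mTR, where 3 of 6 libraries lay inside the WT range. Its log2 fold change was -0.05 ± 0.09 (edgeR adjusted p 0.640), and ran from -0.11 without mdx/mTR replicate 2 to -0.0087 without mdx/mTR replicate 5. Slow is the name of the isoform, and the Mybpc1 level in WT was far above the 188 to 359 CPM summed over 10 slow fibre genes. An annotated gene on the opposite strand covers 5.24% of the 50-base stretches of the Mybpc1 transcript and another covers 2.72% of those of Mybpc2, and whether counting used strand is not given in the sources used here.

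Among M-band transcripts, those of M-protein and myomesin 1 parted. Myom1 (chromosome 17, 71002633 to 71126856, plus strand) had 2302, 2550 and 2743 CPM in WT and 1671, 2256 and 2402 CPM in mdx/mTR as lowest, median and highest, with 4 of 6 mdx/mTR libraries below every WT library. Myom2 (chromosome 8, 15057653 to 15133541, plus strand) had 2214, 2370 and 2722 CPM in WT and 2071, 2800 and 3143 CPM in mdx/mTR, with 4 of 6 mdx/mTR libraries above every WT library and replicate 5 below them all. Neither level passed the test: the log2 fold change was -0.21 ± 0.09 for Myom1 (edgeR adjusted p 0.0639) and 0.17 ± 0.09 for Myom2 (edgeR adjusted p 0.145).
Leaving out 1 library brought Myom1 past the threshold without WT replicate 2 (adjusted p 0.0488) or mdx/mTR replicate 1 (adjusted p 0.0470), and Myom2 without mdx/mTR replicate 5 (log2 fold change 0.23, adjusted p 0.0122). Myom3 (chromosome 4, 135759715 to 135815564, plus strand) was scarce, at 25.4 to 54.2 CPM in WT and 19.9 to 44.6 CPM in mdx/mTR, and did not pass (log2 fold change -0.15 ± 0.21, edgeR adjusted p 0.573). Its log2 fold change was -0.0021 without WT replicate 2 and -0.27 without mdx/mTR replicate 2.

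Shares of counts within a library do not depend on how libraries are scaled, and 6 were compared by two-sided exact permutation tests with Benjamini-Hochberg adjustment over the 6. Myom2 made up 46.3% to 49.8% of myomesin counts in WT (median 48.9%) and 53.4% to 58.5% in mdx/mTR (median 54.5%). Every mdx/mTR library had more Myom2 than Myom1 counts, as did WT replicates 2 and 4 narrowly, and the groups did not overlap in the share. The mean Myom2 share rose from 48.6% ± 1.43 (SD, n = 6) to 54.96% ± 1.86 (SD, n = 6), a difference of 6.40 points (exact permutation p 0.0022, the smallest this design allows; adjusted p 0.0065).
The Myom1 share moved the other way, from 50.7% ± 1.56 to 44.4% ± 2.01 (exact permutation p 0.0022, adjusted p 0.0065). These shares are complements apart from Myom3, so they are in effect 1 result. It held in all 12 recomputations that left out 1 library, which groups that do not overlap make certain, so this adds no support. Neither gene shared a 50-base stretch with a transcript of another gene. Myom1 does overlap Myl12a on the opposite strand and Gm26561, a long noncoding RNA gene, on the same strand. Myom2 overlaps Gm15678, a pseudogene, on the opposite strand.

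The remaining shares did not pass. Mybpc1 made up 30.4% to 37.0% of the counts of Mybpc1 and Mybpc2 in WT and 31.2% to 42.1% in mdx/mTR (mean difference 4.20 points, exact permutation p 0.0974, adjusted p 0.117). WT replicate 2, at 37.0%, stood above the 30.4% to 32.0% of the other WT libraries. Actn2 made up 7.70% to 13.6% of the counts of Actn2 and Actn3 in WT and 8.95% to 26.3% in mdx/mTR (difference 4.73 points, exact permutation p 0.0736, adjusted p 0.110). The difference was 2.42 points without mdx/mTR replicate 2, and without mdx/mTR replicate 6 it was 5.89 points and passed (exact permutation test, adjusted p 0.0476).
Ttn made up 58.2% to 60.9% of the counts of Ttn and Neb in WT and 58.1% to 62.4% in mdx/mTR (difference 1.88 points, exact permutation p 0.0455, adjusted p 0.0909). Replicate 4, at 58.1%, was the one mdx/mTR library below the WT range, and without it the difference was 2.47 points (exact permutation test, adjusted p 0.0173). The Myom3 share averaged 0.729% ± 0.230 for WT and 0.673% ± 0.278 for mdx/mTR (SD; exact permutation p 0.695, adjusted p 0.695).

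**Figure D2:**
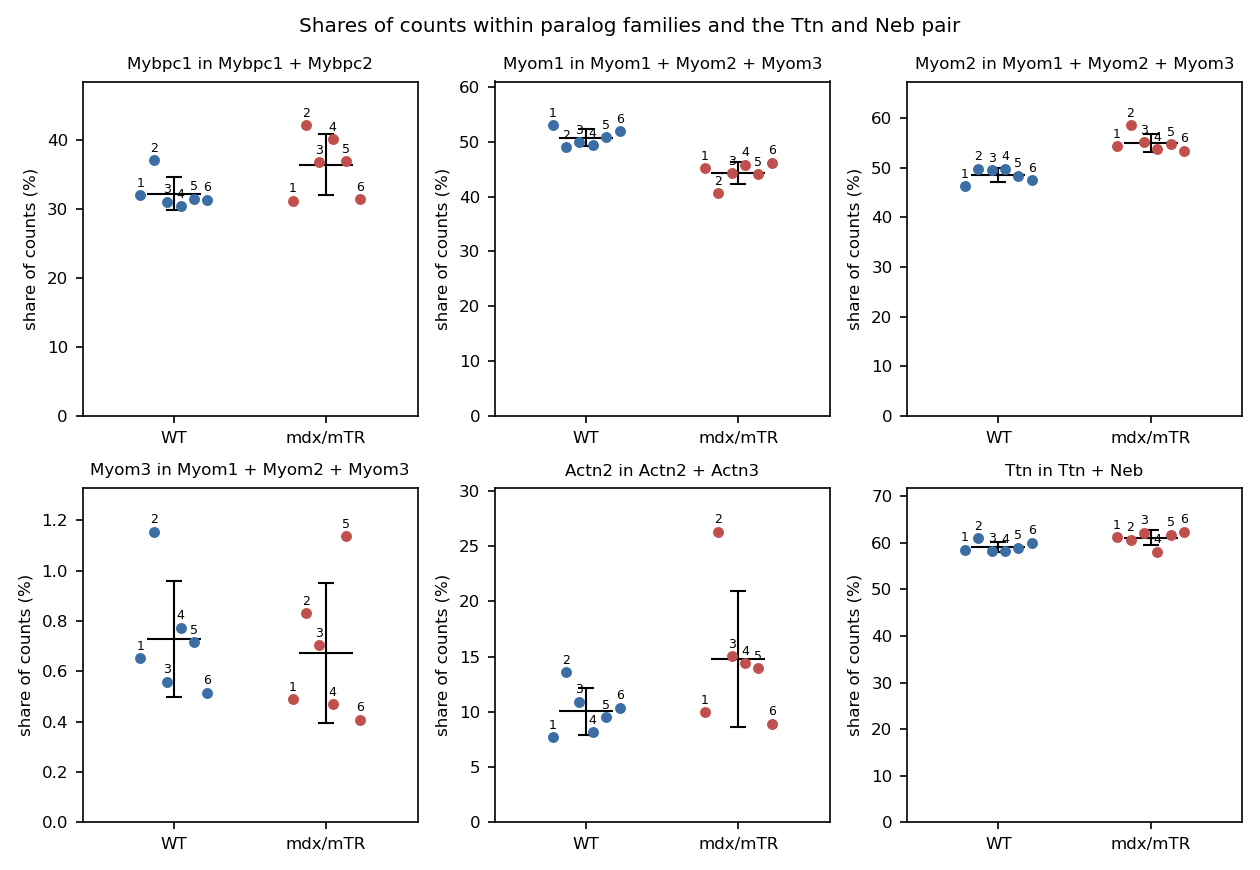
Share of counts (%, axes from 0) that 1 gene takes of its family, or Ttn of Ttn and Neb, in each library; points are libraries with their replicate number, and bars give the mean and SD of 6. Only in the Myom1 and Myom2 panels do all mdx/mTR points lie to one side of all WT points (Myom2: 46.3% to 49.8% against 53.4% to 58.5%).

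Levels and their order between genes were compared per kilobase of the longest annotated coding transcript (GENCODE M21), from 0.948 kb for Tcap to 107 kb for Ttn. In WT the order of mean levels was Tcap (2863 CPM per kb), Mybpc2 (1861), Mybpc1 (813), Neb (570), Myom2 (476), Myom1 (447), Actn2 (378), Ttn (174) and Myom3 (6.45). Neighbours in that order did not overlap in range, except Myom2 with Myom1 and Myom1 with Actn2. In mdx/mTR the order was Tcap (2215 CPM per kb), Mybpc2 (1497), Mybpc1 (783), Myom2 (535), Actn2 (465), Neb (450), Myom1 (388), Ttn (148) and Myom3 (5.79). Here Tcap with Mybpc2, Myom2 with Actn2, Actn2 with Neb, and Neb with Myom1 overlapped. Neb was thus above all 6 libraries' Myom2 levels in WT, while in mdx/mTR its mean was below that of Myom2. Which Ttn exons this muscle uses was not measured.

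**Figure D3:**
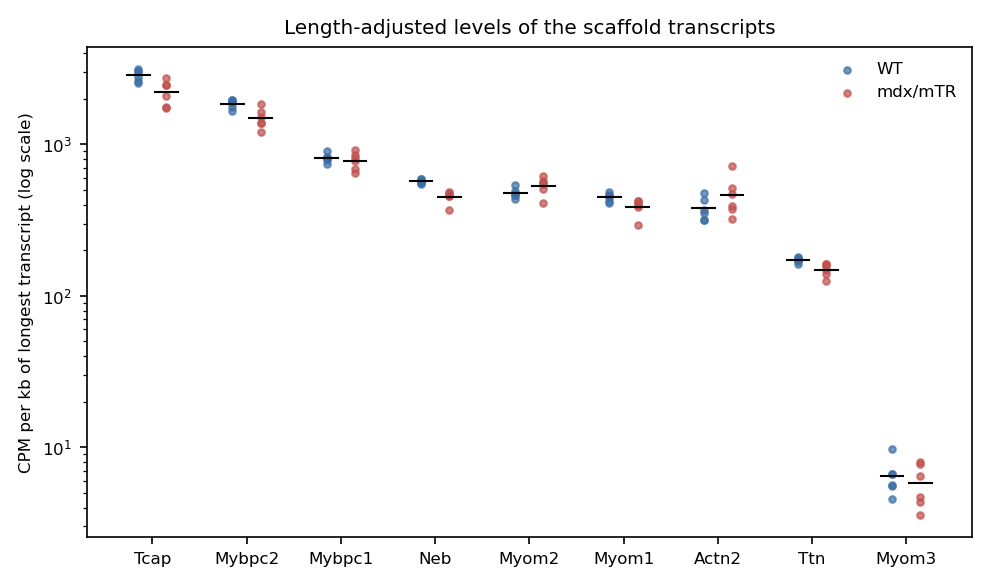
CPM per kilobase of the longest annotated transcript (log axis) for each scaffold gene; points are libraries and lines are means of 6. Tcap is the highest and Myom3 the lowest in both groups, and Neb falls from place 4 to place 6.

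The spread between mice was wider in mdx/mTR for all 9 genes, as it was for 62.7% of tested genes. The coefficient of variation was 3.83% in WT and 10.02% in mdx/mTR for Ttn, and 2.89% and 9.52% for Neb. The lowest mdx/mTR library was replicate 5 for Ttn, Neb, Mybpc1, Mybpc2, Myom1 and Myom2. That library also had the highest summed levels of macrophage markers (878 CPM, where the rest of its group had 310 to 636 CPM), fibroblast and matrix markers (6964 against 3237 to 6136 CPM) and regenerating fibre markers (1675 against 503.7 to 1249 CPM), and the lowest of adult fast fibre genes (156372 against 170170 to 211689 CPM). The part of these in the lower scaffold levels was not tested.

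The differences shrank or grew with the scaling. When only library totals were used, the median over all genes moved on the log2 scale from 0.01 to 0.17, and with libraries scaled to the 16 adult fast fibre genes it moved to 0.17 as well. Under library totals Neb (-0.19, edgeR adjusted p 0.0065) stayed lower and Myom2 (0.32, adjusted p 0.0037) was higher, while Ttn (-0.08, adjusted p 0.275), Mybpc2 (-0.17, adjusted p 0.0527) and Tcap (-0.22, adjusted p 0.0775) did not pass. In that fit 51.3% of all genes were called, 11.2% lower and 40.1% higher.
Against adult fast fibre genes, Neb (-0.19 ± 0.05, edgeR adjusted p 0.0102) and Mybpc2 (-0.17 ± 0.05, adjusted p 0.0105) were lower and Myom2 (0.32 ± 0.08, adjusted p 0.0079) was higher, beside 41.2% of all genes called, 8.93% lower and 32.3% higher. Ttn (-0.08 ± 0.06, adjusted p 0.275), Tcap (-0.22 ± 0.10, adjusted p 0.0745) and Actn2 (0.48 ± 0.20, adjusted p 0.0689) did not pass there. Mybpc1 and Myom3 changed sign to positive in both fits without passing. A change of scaling shifts all genes of a library alike, so values relative to the median gene could hardly move and are no test. Under TMM, library totals and fast fibre genes, Ttn was at -0.24, -0.24 and -0.25 by that measure. Neb was at -0.35, -0.36 and -0.36, and Myom2 at 0.15, 0.15 and 0.15.

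**Figure D4:**
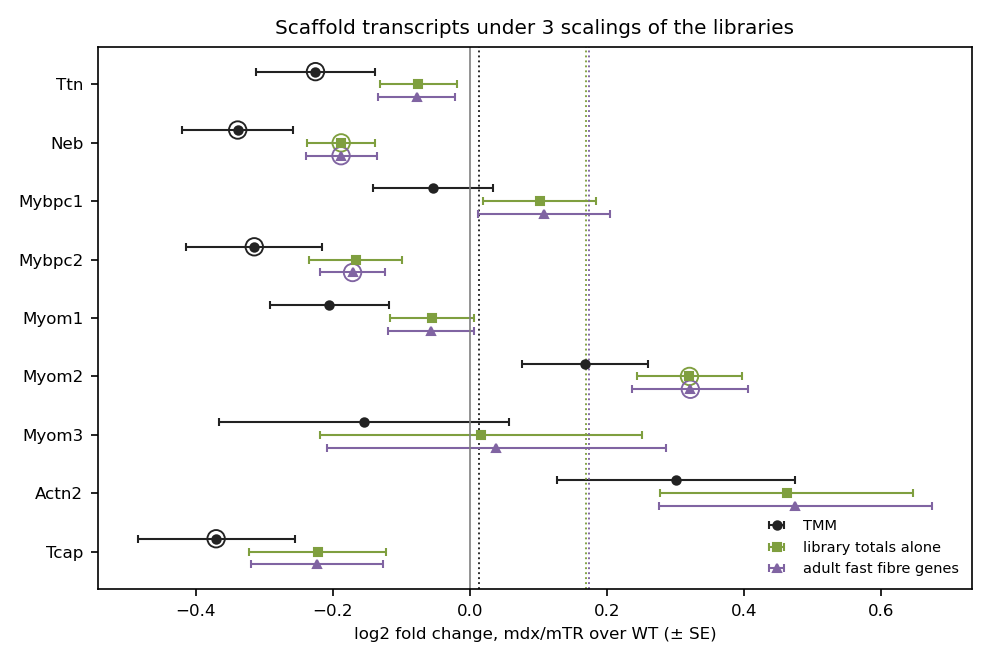
Change from WT to mdx/mTR (log2 scale, bars give the SE) of each scaffold gene under 3 scalings; rings mark an edgeR adjusted p under 0.05 and dotted lines the median of all genes in each fit. Neb is ringed under all 3 scalings, while Ttn and Tcap are ringed under TMM alone.

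The binding partners of these proteins, in 4 lists, held genes called in both directions, beside 25.0% of all tested genes higher and 23.4% lower. Of 17 titin partners 4 were higher and 5 lower (median log2 fold change -0.09), with 2 higher when WT replicate 6 was left out. With GC and length correction 3 were higher and 7 lower, and 2 and 8 with the replicate block added. Ankrd1, a stretch-responsive ankyrin repeat protein of the titin I-band, rose from 15.2 ± 3.24 to 144 ± 34.4 CPM (SD; log2 fold change 3.24, edgeR adjusted p 3.1e-08), and Obsl1, a cytoskeletal adaptor protein, rose by 0.39. Trim54, the ubiquitin ligase MuRF3, fell by 0.64 on the log2 scale, from 436 ± 52.9 to 280.4 ± 23.0 CPM (edgeR adjusted p 5.1e-05).

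Of 16 nebulin and thin filament partners 3 were higher and 4 lower (median 0.02), a split that was 7 and 1 with library totals alone (all genes: 40.1% higher, 11.2% lower) and 6 and 1 against fast fibre genes (all genes: 32.3% higher, 8.93% lower). Klhl40, a kelch protein that stabilises nebulin, rose by 0.43 on the log2 scale, from 156 ± 10.9 to 210 ± 19.2 CPM (edgeR adjusted p 1.6e-04). Xirp2, an actin-binding Xin repeat protein, fell by 0.51, and Nrap, a nebulin-related anchoring protein, fell by 0.39. Capza1, a capping protein subunit at only 4.24 CPM in WT, rose by 0.46; reads shared with other loci were not measured for it.

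Of 16 Z-disc partners of alpha-actinin 4 were higher and 4 lower (median -0.15). The split was 5 and 2 with library totals alone (all genes: 40.1% higher, 11.2% lower) and against fast fibre genes (all genes: 32.3% higher, 8.93% lower). The number higher was 1 with GC and length correction, a fit in which the median of all genes was -0.06. It was 2 without any one of WT replicates 1, 4 and 6 or mdx/mTR replicates 1, 2 and 6. Actn1, a non-muscle alpha-actinin, rose by 0.71 and the LIM protein gene Pdlim3 by 0.28, while Myot (myotilin) fell by 0.49 and Pdlim5 by 0.36. Of 13 tested thick filament and M-band partners 3 were higher and 6 lower (median -0.20). Mybph, a relative of myosin binding protein C, rose by 1.46 and the fast light chain gene Mylpf by 0.42, whereas Speg, a titin-like kinase of the triad, fell by 0.47 and the myosin gene Myh2 by 1.38. Among 326 tested genes with a transcript over 10 kb, the length class of Ttn and Neb, 72 were higher and 109 lower, with a median of -0.07. These counts turned with the scaling. With library totals alone 108 were higher and 57 lower (median 0.09), beside 40.1% and 11.2% of all genes. Against fast fibre genes 93 were higher and 50 lower (median 0.09), beside 32.3% and 8.93% of all genes. The median of all genes was 0.01 under TMM and 0.17 in both other fits, above that of the long transcripts in each. A change of scaling shifts all genes of a library alike, so this order could hardly differ between the fits and the other fits add no support.

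**Figure D5:**
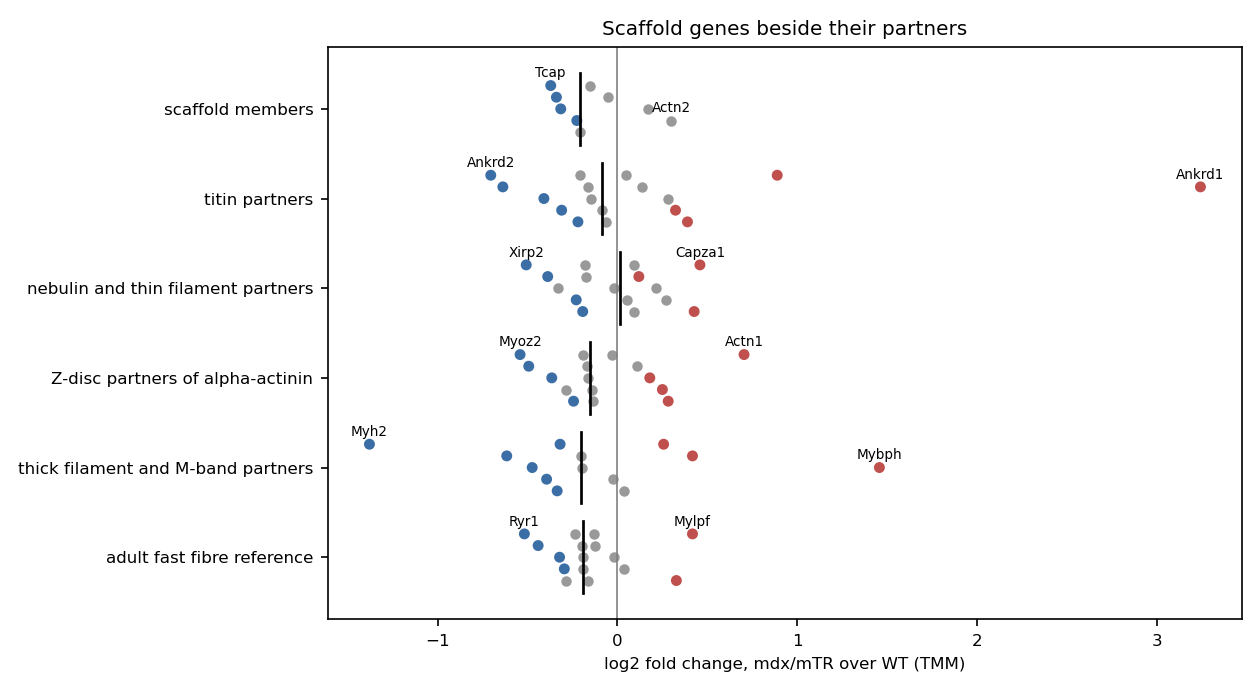
Change from WT to mdx/mTR (log2 scale, TMM) for the scaffold genes, their partner lists and the adult fast fibre list; red and blue points had an edgeR adjusted p under 0.05, grey points did not, and black lines are medians. The scaffold genes (median -0.21) span less than their partners, among which Ankrd1 (3.24) is the highest and Myh2 (-1.38) the lowest.

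Markers of other cells and of fibre state were counted beside all tested genes, of which 25.0% were higher and 23.4% lower. All 11 tested regenerating fibre genes and 11 of 12 macrophage genes were higher, as were all 12 fibroblast and matrix genes. None of 8 endothelial and 8 Schwann cell genes was higher and 5 of each were lower (median log2 fold changes -0.49 and -0.53). Of 7 tested adipocyte genes 2 were lower (median -0.13), near the share of all genes. Summed levels ran from 579 to 742 CPM in WT and from 445 to 551 CPM in mdx/mTR for endothelial genes, from 73.8 to 90.3 and 54.6 to 72.6 CPM for Schwann cell genes, and from 822 to 1143 and 403.5 to 603.5 CPM for adipocyte genes. Most of the adipocyte sum was Lpl, which went from a WT mean of 771.8 to an mdx/mTR mean of 309.1 CPM (log2 fold change -1.32). Fabp4, the other adipocyte gene called lower, went from 179.7 to 152.6 CPM. The remaining tested adipocyte genes were not called, with log2 fold changes from -0.23 to 0.38. The lower sum is thus mainly that of Lpl and gives no measure of adipocyte content. Chrng (5.81) and Tmem8c (7.37) had the smallest p-values among the regenerating fibre genes. Of 10 slow fibre genes 5 were higher, led by Atp2a2 (1.17) and Tnni1 (4.01), and 2 were lower, Myl3 (-1.85) and Myh7b (-1.04). The number lower was near the share of all genes. The summed slow fibre level was 188 to 359 CPM in WT and 206 to 512 CPM in mdx/mTR. Cardiac markers, which matter because heart shares Ttn, Actn2, Tcap and Myom1, summed to 5.31 to 7.03 CPM in WT and 3.17 to 7.73 CPM in mdx/mTR, with 2 of the 8 listed genes past the filter. No listed gene of these panels that the table holds was at 0 in all libraries. The part of these cell types in the scaffold differences was not tested.

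Genes whose levels followed each scaffold gene from mouse to mouse were ranked by Pearson's r between deviations from the group means over the 12 libraries, among 9509 genes of at least 5 CPM. The libraries share depth and makeup, so these values only describe. Neb was closest to Cisd1 (0.96) and Mff (0.94), Ttn to Smim20 (0.93) and Dcun1d3 (0.92), and Mybpc2 to Pvalb (0.95) and Homer1 (0.95). Myom1 was closest to Ecsit (0.97) and Abcb8 (0.96), Myom2 to Ldb3 (0.96) and Gm561 (0.96), and Myom3 to Itga5 (0.93) and Tm6sf1 (0.93). Actn2 was closest to Fhl1 (0.96) and Dennd5a (0.94), Tcap to Arhgef17 (0.97) and Clec16a (0.93), and Mybpc1 to Ndufb5 (0.93) and Got2 (0.93).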

How the data were processed

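The authors deposited whole-number counts per gene symbol for 12 libraries, and a table of their own comparison giving a mean normalized signal, a log2 fold change and its error, a score for the test and p-values, per the file headers. The submitters' processing notes name FastQC, STAR, DESeq2 and mm10 without roles; the counting tool, annotation and strand setting are not given in the sources used here. Members and gene lists were chosen with earlier results of these data known.

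Counts were fitted with edgeR 4.0.16 (R 4.3.3): filterByExpr (13937 genes, 99.97% of counts), TMM scaling, group as the only term, quasi-likelihood F-test, Benjamini-Hochberg adjustment over all tested genes, threshold 0.05. The SE of a log2 fold change is its size over the square root of F. Alternatives used limma 3.58.1, DESeq2 1.42.0, other filters and scalings, thinning, GC and length correction (values for 96.4% of tested genes), a replicate block and each library left out. The fit was tested on simulated data. Beside the members, Dmd and Terc, named genes are the 2 smallest p-values per direction of a list; 1 gene named by this rule is not reported here. Actn3, the partner of Actn2 in a share, and Myh1, picked after its values were seen, stand outside the rule. GENCODE M21 gave coordinates and lengths. Every replicate pair differed by more than sampling noise (chi-square per degree of freedom 9.32 to 128). P-values weigh group differences against the spread between these samples, and depth limits cover counting error only.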

Additional observations from a re-analysis of the deposited data

Results flagged for a closer look

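Within each group of 6 libraries, the gap between the highest or lowest library and its neighbour was set against the range of the group for the 9 levels and the 6 shares. Of 30 groups of values, 6 stood apart in this way, where chance gives about 1 in 20. The values are not independent.

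The library of mdx/mTR replicate 5 was far below the others for Neb (8249 CPM against 10210 to 10966 CPM) and for Myom1 (1671 CPM against 2182 to 2402 CPM). The library of mdx/mTR replicate 2 was far from the others for the Myom1 share of myomesin counts (40.6% against 44.15% to 46.2%), the Myom2 share (58.5% against 53.4% to 55.1%) and the Actn2 share of Actn2 and Actn3 (26.3% against 8.95% to 15.04%). The library of WT replicate 2 was far above the others for the Mybpc1 share (37.03% against 30.4% to 32.0%).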

How the results depend on the processing

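Neb was lower past the threshold under every setting run, including all 12 fits without 1 library (log2 fold change -0.36 to -0.29). Of the 9 genes, 4 were called in the reported fit (6736 of all 13937 tested genes), 3 to 5 with 1 library left out (6125 to 6816 genes), 2 with library totals alone (7150), 2 without both libraries numbered 2, added after seeing the data (6357), and 1 at an adjusted p of 0.01 (4621). The log2 fold change of Mybpc1 became 0.10 with library totals alone and 0.11 against fast fibre genes, and that of Myom3 became 0.016 and 0.039; none passed.

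Leaving out 1 library gave differences of 5.69 to 6.71 points for the Myom2 share, -6.71 to -5.60 for Myom1, 3.06 to 5.25 for Mybpc1, 2.42 to 5.89 for Actn2, 1.61 to 2.47 for Ttn and -0.148 to 0.0296 for Myom3, which changed sign without WT replicate 2. Deviations of same-numbered libraries had correlations from -0.155 to 0.354, over 0.1 in 2 of 6 pairs, so the numbers were not taken as pairs. With the replicate block 3 of the 9 genes and 6420 genes in all were called. An exact sign-flip test of same-numbered differences (replicate block) gave -6.35 points for Myom1 and 6.40 for Myom2, each with an adjusted p of 0.0938. The smallest unadjusted p it allows is 0.0312, and both shares were at that floor. With the other shares above the floor, neither could pass after adjustment, so the test cannot decide here.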
